A study of Mus musculus with 8 samples.

Results

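The 9 genes described here act in the leukotriene and prostaglandin pathway of lung group 2 innate lymphoid cells (ILC2s), tissue lymphocytes that answer the alarmin IL-33 with type 2 cytokines. They are the leukotriene receptors Ltb4r1 and Cysltr1, the prostanoid receptors Ptgdr2, Ptger4 and Ptgir, and the synthesis genes Ptgs2, Hpgds, Alox5 and Alox5ap. The members were chosen by name with measured values of these same libraries already known, so their differences are a description of these samples, and the model p-values beside them are not independent evidence. All 9 were among the 55413 genes of the bulk table and 8 among the 15083 genes of the droplet table. Ptgdr2 had no row there.

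The mice were wild type C57BL/6. For bulk RNA-seq, female mice had received IL-33 together with either PBS vehicle or dopamine through the nose on 3 consecutive days, and each of the 3 replicate libraries per group was made by SMART-Seq2, a full-length cDNA method, from 2000 sorted ILC2s. For single-cell RNA-seq, ILC2s of male mice were marked with antibody hashtags and run as 1 droplet (10x) pool. Treatment is given as 3 days for the droplet pool as well. The cell table names hashtags 1 and 2 as PBS, hashtags 3, 4 and 5 as IL-33, and hashtags 6, 7 and 8 as IL-33 with dopamine. The PBS group is read here as cells without IL-33 because the other groups carry IL-33 in their names, and the labels neither describe it further nor state that a hashtag was 1 mouse. The sources used here do not give the ages of the mice.

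Both arms of the pathway start from arachidonic acid. 5-lipoxygenase (Alox5), working with its activating protein FLAP (Alox5ap), makes leukotriene A4, which is turned into leukotriene B4, the ligand of Ltb4r1, or into the cysteinyl leukotrienes, the ligands of Cysltr1. Cyclooxygenase-2 (Ptgs2) makes prostaglandin H2, which haematopoietic prostaglandin D synthase (Hpgds) turns into prostaglandin D2, the ligand of Ptgdr2 (CRTH2), while Ptger4 (EP4) binds prostaglandin E2 and Ptgir (IP) binds prostacyclin. In ILC2s, cysteinyl leukotrienes and prostaglandin D2 are known as activating signals, and prostaglandin E2 and prostacyclin as restraining ones.

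The 8 hashtags held between 311 cells and 1516 cells of 9076, total counts of unique molecular identifiers (UMIs) from 1397576 to 9268932, and median UMIs per cell from 4201 to 5692. ILC2 markers were present throughout: 89.7% of cells had a UMI of Gata3, the lineage factor, and 92.2% one of Il1rl1, which binds IL-33. In the bulk libraries, IL-33 with PBS library 2 stood apart, with 9822 genes at 1 TPM (a transcript's length-corrected share of the library) or more against 10525 to 11745 in the other 5. The median gene was 0.49 higher with dopamine on the log2(TPM + 1) scale, and 0.06 higher after median-of-ratios scaling, so the bulk fold changes of members are also given relative to that median. Markers of other cell types moved with dopamine in the bulk libraries: the 7 NK cell and ILC1 markers, all detected, summed to between 8.89 TPM and 48.7 TPM with PBS and between 104 TPM and 195 TPM with dopamine, and the 6 ILC3 markers, all detected, to between 18.6 and 109 TPM and between 132 and 264 TPM. So did T cell markers (8 of 8 detected, 1148 to 1660 against 1686 to 2156 TPM), epithelial markers (4 of 6 detected, 10.3 to 16.4 against 27.2 to 30.2 TPM) and endothelial markers (3 of 6 detected, 7.33 to 22.1 against 23.8 to 29.8 TPM), each sum without overlap. The eosinophil sum was low, with 2 of 6 markers at 0 throughout. It ran from 1 to 3.55 TPM with PBS and from 4.42 to 5.92 TPM with dopamine, also without overlap. Over all genes tested, 23.5% were higher without overlap. Gzma was the largest part of the NK cell and ILC1 sum with dopamine, at 132, 75.1 and 69.2 TPM. It had a UMI in 47.5% of droplet cells. Gzma, Ncr1, Klrb1c and Tbx21 were each higher with dopamine without overlap, while Eomes and Prf1 overlapped between the groups. Klra8 did not rise, at 1.38, 0 and 1.35 TPM with PBS and 0, 1.35 and 0.89 TPM with dopamine. The T cell sum was mostly Trbc2, Trbc1 and Cd3g, which had a UMI in 79.6%, 73.8% and 19.0% of droplet cells. Its log2 ratio, dopamine over PBS, was 0.51, beside 0.49 for the median gene. Trac went from 14.4, 10.5 and 39.2 TPM with PBS to 77.5, 149 and 121 TPM with dopamine. Cd3e went from 4.33, 6.68 and 43.59 TPM to 44.75, 170 and 105 TPM. Cd3d, at 1.82, 7.16 and 46.1 TPM against 39.65, 181 and 103 TPM, overlapped between the groups, as did Cd4 and Cd8a. Trac, Cd3e and Cd3d had a UMI in 3.78%, 1.53% and 1.45% of droplet cells. The endothelial sum was nearly all Pecam1, which had a UMI in 10.0% of droplet cells. Epithelial Krt18 went the other way, from 2.64, 1.46 and 1.57 TPM to 0 with dopamine. The part of these markers in the bulk results was not tested. In bulk samples, fewer cells of a type and less RNA per cell cannot be told apart.

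Ltb4r1 was higher in IL-33 hashtags than in PBS hashtags, and lower with dopamine in the droplet hashtags. Ptgs2 was higher in IL-33 than in PBS hashtags, and most of its UMIs lay in few cells. No member passed the test in the bulk libraries, where 4 of 11222 genes did (0.0356%) by limma with Benjamini-Hochberg adjustment at an adjusted p under 0.05. In the bulk libraries 3 of 9 members (Ptgs2, Ptger4 and Cysltr1) were higher with dopamine without overlap between the groups, beside 23.5% of all genes tested. Ltb4r1, 1 of 9, was lower without overlap, beside 6.57% of all genes tested. The median log2 fold change was 0.54 over the 9 members and 0.49 over all genes tested.

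**Figure D1:**
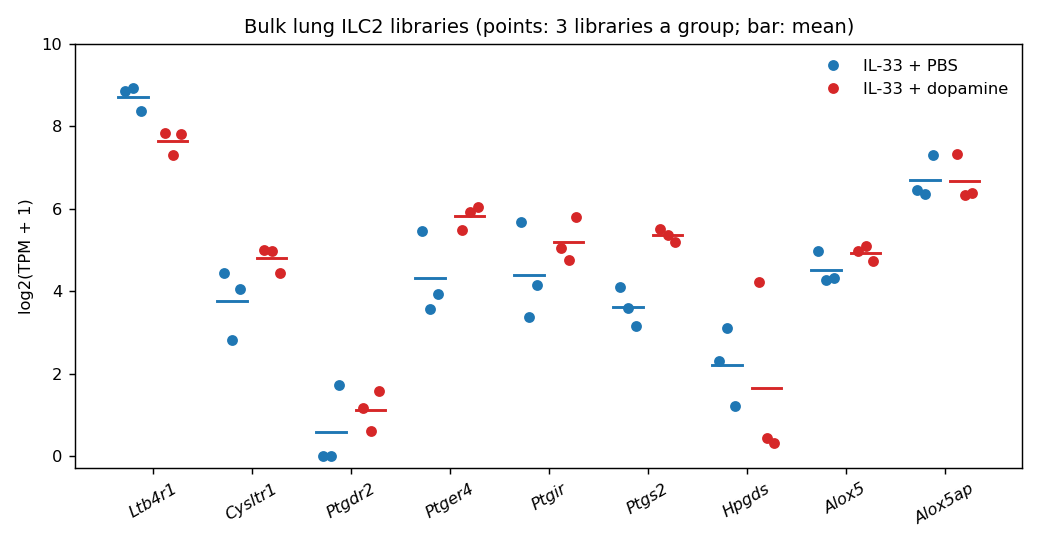
Expression of the 9 members in the bulk libraries as log2(TPM + 1), the vertical axis, for each gene on the horizontal axis; points are the 3 libraries of a group and bars their mean. The 3 dopamine libraries lie below the 3 PBS libraries for Ltb4r1 and above them for Ptgs2, Ptger4 and Cysltr1, and the groups overlap for the other 5 genes.

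Ltb4r1 and Ptgs2 moved in opposite directions with dopamine in the bulk libraries, and their RefSeq promoters are printed for that reason. Each runs from 250 bases before to 50 bases after the annotated start, 300 bases in GRCm38.p6, 5′ to 3′ on the plus strand, at chr1:150099781-150100080 for Ptgs2 and chr14:55765712-55766011 for Ltb4r1. Capitals mark a match to the core TGACG of the cAMP response element, to the AP-1 motif TGANTCA or to the GATA motif AGATAA on either strand.
Ptgs2: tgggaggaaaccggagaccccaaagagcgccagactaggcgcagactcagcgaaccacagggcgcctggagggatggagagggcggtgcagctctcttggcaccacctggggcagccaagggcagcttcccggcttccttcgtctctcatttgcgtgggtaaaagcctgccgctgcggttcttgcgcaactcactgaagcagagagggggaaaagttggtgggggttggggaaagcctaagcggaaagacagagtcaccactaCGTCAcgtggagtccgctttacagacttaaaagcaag
Ltb4r1: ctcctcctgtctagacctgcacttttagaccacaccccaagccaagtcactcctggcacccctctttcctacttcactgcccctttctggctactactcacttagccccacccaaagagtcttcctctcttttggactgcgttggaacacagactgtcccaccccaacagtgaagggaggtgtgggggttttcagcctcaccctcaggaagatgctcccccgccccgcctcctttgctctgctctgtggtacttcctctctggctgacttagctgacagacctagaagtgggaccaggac
The Ptgs2 window held 1 such core, as its reverse complement CGTCA, beginning at base 14 counted from the annotated start. It held no other of these 3 motifs, and the Ltb4r1 window held none. Over 32851 RefSeq promoters of the same length, 20.8% held the TGACG core, 7.81% the AP-1 motif and 11.2% the GATA motif. The full cAMP response element TGACGTCA, in 1.79% of promoters, was in neither window. The NFAT core GGAAA had 4 matches in the Ptgs2 window and 1 in the Ltb4r1 window, against a share of 61.3% of promoters with at least 1. Promoters were found for 7 of the 9 members. A match is a description of letters and says nothing about a factor.

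Ltb4r1, the high-affinity leukotriene B4 receptor, lies on chromosome 14 from 55765962 to 55768494, plus strand (GRCm38, GENCODE M21). It was the most abundant of the 9 transcripts by TPM in every bulk library. Its TPM was 466, 487 and 330 in IL-33 with PBS libraries 1, 2 and 3, and 226, 156 and 225 in the 3 libraries with dopamine. All 3 dopamine libraries lay below all 3 PBS libraries. Dopamine over PBS, the log2 fold change was -1.07 ± 0.24 (SE), or -1.57 relative to the median gene, with a limma adjusted p of 0.0832. Without IL-33 with PBS library 1 the limma adjusted p was 0.0442, and without library 2 it was 0.200 with a log2 fold change of -0.97. Weighting the libraries by their quality gave a log2 fold change of -0.78 and a limma adjusted p of 0.0210, in a fit where 2800 genes passed. Ltb4r2, the low-affinity receptor gene 823 bases upstream, reached at most 2.43 TPM and had 31 UMIs in all against 12529 for Ltb4r1.

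In the droplet hashtags, levels are UMIs scaled to a hashtag total of 1000000 (CPM), tested with edgeR's quasi-likelihood test and Benjamini-Hochberg adjustment over all genes. Ltb4r1 was at 208.2 and 208.1 CPM in the PBS hashtags, at 313, 293 and 325 CPM in the IL-33 hashtags, and at 227, 208.1 and 184 CPM in the IL-33 with dopamine hashtags. Every IL-33 hashtag lay above every other hashtag, and the dopamine and PBS hashtags ranged over one another. Against PBS, IL-33 hashtags were higher by 0.54 ± 0.08 (SE) on the log2 scale (95% interval 0.36 to 0.72, edgeR adjusted p = 0.00822), in a comparison where 74 of 10506 genes passed (0.704%). With dopamine the level was lower than with IL-33 alone by a log2 fold change of -0.59 ± 0.08 (SE; 95% interval -0.76 to -0.42, edgeR adjusted p = 0.0293), where 3 of 10559 genes passed (0.0284%), all lower. Both droplet comparisons use the same IL-33 hashtags.

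The Ltb4r1 calls were lost when certain hashtags were left out. For dopamine the edgeR adjusted p was 0.290 without hashtag 3, 0.112 without hashtag 4, 0.234 without hashtag 5 and 0.0568 without hashtag 8, with log2 fold changes from -0.64 to -0.54 over the 6 hashtags left out in turn. For IL-33 the edgeR adjusted p was 0.103 without hashtag 1 and 0.0604 without hashtag 2. It was 0.154 with all 8 hashtags in 1 fit and 0.0854 among cells between the 10th and 90th percentile of UMIs (log2 fold change 0.37).

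The share of cells with a Ltb4r1 UMI followed the same order. It was 55.6% and 53.9% in the PBS hashtags, 73.1%, 67.9% and 71.1% with IL-33, and 62.1%, 57.8% and 49.4% with dopamine. With each cell thinned to 2000 UMIs, which left out 2 IL-33 cells, 1 dopamine cell and 1 PBS cell, the mean share was 41.6% ± 2.30 (SD, n = 3) with IL-33 and 31.3% ± 1.69 (SD, n = 3) with dopamine. The exact two-sided permutation p was 0.1 for the raw and the thinned share, the smallest that 3 against 3 hashtags allow. UMIs of transcripts typical of other cell types were uneven between genes. Whether these came from free RNA, doublets or other cells was not tested. Lyz2, of macrophages, had a UMI in 0.253% of cells and Sftpc, of alveolar epithelium, in 0.441%. Scgb1a1, the main secretory transcript of club cells and listed at 0 TPM in all 6 bulk libraries, had one in 32.6% (4020 UMIs, between 73.4 and 101.7 CPM per hashtag and between 58.8 and 98.7 CPM per cluster). The Ltb4r1 share lay above that of Scgb1a1, as did those of Cysltr1 (42.4%) and Ptgir (41.2%), while Ptger4 (31.1%), Alox5 (9.94%), Ptgs2 (6.51%), Alox5ap (4.61%) and Hpgds (3.92%) lay below it, so their shares alone do not show expression.

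**Figure D2:**
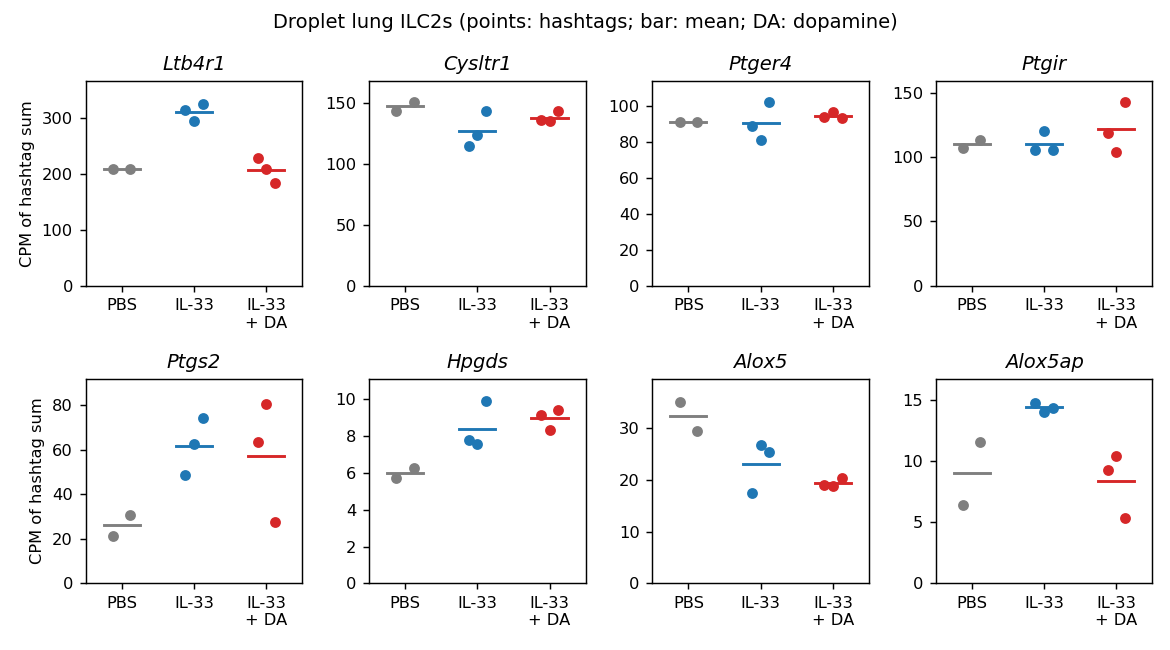
CPM of the summed UMIs of each hashtag (vertical axes, from 0) for the 8 members in the droplet table, by treatment; points are hashtags and bars group means. Ltb4r1 is at 293 CPM or more in the 3 IL-33 hashtags and at 227 CPM or less in the other 5, and 1 dopamine hashtag is low for Ptgs2 at 27.8 CPM.

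Ltb4r1 was detected in all 6 of the authors' clusters, which are given by number. Its pooled level was 373 CPM in cluster 5, 326 in cluster 1, 262 in cluster 4, 219 in cluster 3, 205 in cluster 2 and 170 in cluster 0. The same hashtags make up each cluster, and neighbours in this order are compared within them: cluster 5 lay above cluster 1 in 7 of 8 hashtags, cluster 1 above 4, and 4 above 3, in 7 of 8 each, cluster 3 above 2 in 4 of 8, and cluster 2 above 0 in 8 of 8. Clusters 3 and 2 were therefore not ordered. Cluster 5 lay above cluster 0 in 8 of 8 hashtags. Of the 40 cells with 10 or more Ltb4r1 UMIs, 30 were in cluster 5, whose median cell also held the most UMIs (8142 against 4082 in cluster 0). These levels come from the cells and genes that made the clusters and were not tested.

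Cluster sizes differed between hashtags, within treatments as well as between them, and were not tested. Cluster 5 held 2.57% and 3.07% of cells in the PBS hashtags, 22.0%, 8.88% and 11.7% with IL-33, and 6.71%, 14.2% and 1.76% with dopamine. Cluster 1 held 8.36% and 23.3%, then 26.2%, 27.8% and 27.2%, then 15.7%, 21.6% and 11.7%. Within clusters, Ltb4r1 stayed lower with dopamine: the 3 dopamine hashtags lay below the 3 IL-33 hashtags in each of the 6 clusters. Of 6083 genes tested within all 6 clusters, 1 had that pattern (0.0164%), and it was Ltb4r1. The gene was chosen with its dopamine values known, and nothing is read from that share.

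In cluster 5 Ltb4r1 was at 396, 438 and 412 CPM with IL-33 and at 301, 285 and 352 CPM with dopamine. In cluster 3 it was at 254, 267 and 309 CPM with IL-33 and at 199, 203 and 164 CPM with dopamine. In cluster 0, the cluster with the lowest level, it was at 171, 191 and 235 CPM with IL-33 and at 166, 128 and 149.5 CPM with dopamine. Between the nearest hashtags the gap was narrow there, 166 against 171 CPM, and in cluster 2, 204 against 209 CPM. Log2 fold changes within clusters 0 to 5 were -0.46, -0.33, -0.45, -0.58, -0.49 and -0.49, and the edgeR adjusted p ranged from 0.0630 in cluster 5 to 0.625 in cluster 1. None passed, beside 0.0388%, 0.075%, 0%, 0%, 0.0548% and 0.266% of genes tested in clusters 0 to 5. With equal weight for each cluster the dopamine fold change over all cells was -0.43 and the IL-33 fold change 0.34, with no test.

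**Figure D3:**
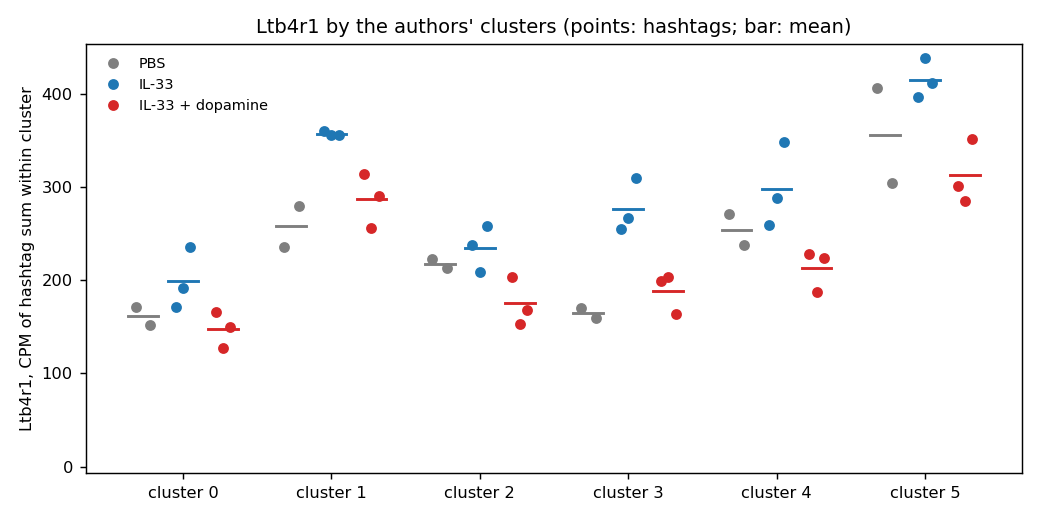
Ltb4r1 in CPM of the hashtag's summed UMIs within each of the 6 clusters (vertical axis), by treatment; points are hashtags and bars group means. In every cluster the 3 IL-33 with dopamine points lie below the 3 IL-33 points, with fold changes between -0.33 and -0.58 on the log2 scale.

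Cysltr1, the receptor for leukotriene D4, lies on chromosome X from 106574346 to 106603679, minus strand. Its TPM was 20.8, 6.08 and 15.5 in the bulk libraries with PBS and 31.2, 30.3 and 20.9 with dopamine. The groups were separated only by 20.84 TPM in PBS library 1 against 20.86 TPM in dopamine library 3. Its log2 fold change was 1.04 ± 0.48 (SE), 0.54 relative to the median gene, with a limma adjusted p of 0.218, and 0.56 without PBS library 2 (limma adjusted p = 0.520). In droplets it was at 143 and 151 CPM with PBS, 114, 123 and 143 CPM with IL-33, and 136, 135 and 143 CPM with dopamine. IL-33 hashtags lay just below the PBS hashtags (log2 fold change -0.25, 95% interval -0.48 to -0.02, edgeR adjusted p = 0.324). The dopamine comparison gave 0.12 with a 95% interval of -0.08 to 0.33 (edgeR adjusted p = 0.703).

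By pooled level, Cysltr1 was lowest in clusters 5 and 1 (90.1 and 103 CPM), where Ltb4r1 was highest. Among clusters 0, 2, 3 and 4, both genes were highest in cluster 4 and lowest in cluster 0. The highest level of Cysltr1 was in cluster 4 at 202 CPM, and cluster 4 lay above cluster 5 in 8 of 8 hashtags. Clusters 3, 2 and 0, at 145, 144 and 140.4 CPM, were not ordered: cluster 3 lay above cluster 2 in 3 of 8 hashtags and cluster 2 above cluster 0 in 4 of 8. Across 47 sums of a hashtag and a cluster with at least 20 cells, the 2 receptors had a Pearson r of -0.40 on the log2(CPM + 1) scale, as a description of points that share hashtags, clusters and depth. The Cysltr1 gene overlaps Gm5127 on the opposite strand over 20494 bases, and Gm5127 itself had 246 UMIs and at most 5.40 TPM.

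Ptger4, the prostaglandin E2 receptor EP4, lies on chromosome 15 from 5206661 to 5244187, minus strand. Its TPM was 43.2, 10.9 and 14.2 with PBS and 44.0, 59.3 and 65.0 with dopamine. Dopamine libraries were all higher, although PBS library 1 at 43.17 and dopamine library 1 at 43.97 nearly met. The estimate was 1.50 ± 0.49 (SE) on the log2 scale, 1.002 relative to the median gene, with a limma adjusted p of 0.127. The limma adjusted p was 0.0167 without PBS library 1 (2.07) and 0.00828 with library weights (1.84), but 0.330 without PBS library 2 (1.12), and median-of-ratios scaling gave 0.97 (0.169). In droplets Ptger4 was at 90.9 and 91.1 CPM with PBS, 88.9, 80.6 and 102.2 CPM with IL-33, and 93.8, 96.2 and 93.1 CPM with dopamine. These groups overlapped, and the dopamine difference was 0.06 with a 95% interval of -0.15 to 0.26. Ptger4 overlaps Ttc33 on the opposite strand over 11676 bases, and Ttc33 reached 21.3 TPM.

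Ptgir, the prostacyclin receptor, lies on chromosome 7 from 16906490 to 16910905, plus strand. Its TPM was 50.6, 9.37 and 16.6 with PBS and 32.3, 25.9 and 54.3 with dopamine, and the groups overlapped. On the log2 scale the difference was 0.80 ± 0.57 (SE; limma adjusted p = 0.389), 0.30 relative to the median gene. It moved to 1.44 without PBS library 1 (limma adjusted p = 0.0619) and to 0.29 without PBS library 2 (0.819). In droplets it was at 107 and 113 CPM with PBS, 106, 120.3 and 106 CPM with IL-33, and 119, 104 and 143 CPM with dopamine, again with overlap. The dopamine difference was 0.15 with a 95% interval of -0.11 to 0.41. By pooled level, both prostanoid receptors were highest in cluster 2, at 118 CPM for Ptger4 and 147 CPM for Ptgir, and lowest in cluster 1, at 74.7 CPM and 93.6 CPM. Cluster 2 lay above cluster 1 in 8 of 8 hashtags for Ptger4 and in 7 of 8 for Ptgir. It lay above the next cluster in only 5 of 8 hashtags for each, cluster 5 for Ptger4 and cluster 3 for Ptgir. Cluster 1 lay below the next lowest cluster in 5 of 8 hashtags for each. With equal weight for each hashtag, Ptgir was lowest in cluster 0, at 94.1 CPM against 101.8 CPM in cluster 1. Scgb1a1, the club cell transcript, had a 1.68-fold range between clusters, against 1.58-fold for Ptger4 and 1.57-fold for Ptgir. Ighm, a B cell marker with a UMI in 28.1% of cells, had a 2.66-fold range. That was wider than the 2.20-fold range of Ltb4r1 and the 2.25-fold range of Cysltr1. Only Alox5ap (3.37-fold) and Ptgs2 (16.3-fold) ranged more widely among the members.

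Ptgdr2, the prostaglandin D2 receptor CRTH2 often used as an ILC2 surface marker, lies on chromosome 19 from 10937160 to 10942511, plus strand. It was listed at 0 TPM in PBS libraries 1 and 2 and at 2.29 TPM in library 3, and at 1.24, 0.52 and 1.99 TPM with dopamine. The groups overlapped (log2 fold change 0.54, 0.05 relative to the median gene, limma adjusted p = 0.578). Ccdc86, which overlaps Ptgdr2 on the opposite strand over 1031 bases, reached 11.1 TPM, and the sources used here do not state whether counting used strand.

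Ptgs2, which encodes the inducible cyclooxygenase-2, lies on chromosome 1 from 150100031 to 150108227, plus strand. Its TPM was 16.1, 11.1 and 7.93 in the bulk libraries with PBS and 44.9, 40.0 and 35.5 with dopamine. The lowest dopamine library held more than the highest PBS library. Dopamine over PBS, it differed by 1.74 ± 0.39 (SE) on the log2 scale, 1.24 relative to the median gene, with a limma adjusted p of 0.0832. This adjusted p became 0.0195 without PBS library 1, 0.198 without PBS library 2 and 0.00749 with library weights.

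In droplets Ptgs2 was at 21.5 and 30.7 CPM with PBS, 48.7, 62.8 and 74.3 CPM with IL-33, and 63.7, 80.6 and 27.8 CPM with dopamine. IL-33 hashtags were all above PBS hashtags, while dopamine hashtag 8 sat at the PBS level and hashtags 6 and 7 within or above the IL-33 range. With IL-33 it was higher than with PBS by 1.13 ± 0.21 on the log2 scale (SE; 95% interval 0.69 to 1.57, edgeR adjusted p = 0.0209). That call was lost without PBS hashtag 1 (edgeR adjusted p = 0.287) or hashtag 2 (0.0899), with all 8 hashtags in 1 fit (0.294), and among cells between the 10th and 90th percentile of UMIs, where the fold change was 0.47 (0.415). For dopamine the log2 fold change was -0.11 with a 95% interval of -0.70 to 0.48 (edgeR adjusted p = 0.923). The bulk and droplet differences for Ptgs2 were not tested against each other. They come from female and male mice and from full-length and 3′ libraries.

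Few cells held most of the Ptgs2 RNA. A UMI was seen in 591 of 9076 cells (6.51%), with a mean of 4.65 UMIs in those cells and at most 51. The 91 cells with the most UMIs of the gene, 1% of all, held 56.3% of its UMIs, against 6.97% for Ltb4r1 and 7.43% for Ptgir. Of 84 cells with 10 or more Ptgs2 UMIs, 40 were in cluster 3, 26 in cluster 5 and 10 in cluster 2. Ltb4r1, in contrast, had a UMI in 62.5% of cells.

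The clusters differed more for Ptgs2 than for any other member. It was at 162 CPM in cluster 3, 111 in cluster 5, 46.3 in cluster 2, 22.2 in cluster 4, 13.7 in cluster 1 and 9.93 in cluster 0, a 16.3-fold range, against a 2.20-fold range for Ltb4r1. Cluster 3 held 13.2% of cells and 41.7% of Ptgs2 UMIs, and lay above cluster 0 in 8 of 8 hashtags. The spread over hashtags was wide, with 150 ± 89.7 CPM in cluster 3 and 78.7 ± 66.4 CPM in cluster 5 (SD, n = 8), and cluster 3 lay above cluster 5 in 7 of 8 hashtags.

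Within cluster 5 Ptgs2 was at 0 in both PBS hashtags, which hold 8 and 23 such cells, and a count of 0 allows up to 58.1 and 24.0 CPM there. It was at 90.8, 176 and 151 CPM with IL-33 and at 96.1, 93.6 and 22.5 CPM with dopamine. Within cluster 3 it was at 38.5 and 77.3 CPM with PBS, 84.8, 227 and 187 CPM with IL-33, and 265, 243 and 77.3 CPM with dopamine, so the IL-33 and dopamine groups overlapped. In cluster 1, where the level was low, the dopamine hashtags at 7.32, 7.001 and 2.96 CPM lay below the IL-33 hashtags at 16.9, 21.0 and 20.1 CPM. The log2 fold change there was -1.62 ± 0.32 (SE; edgeR adjusted p = 0.0465), the only call of a member within a cluster, and it did not hold when any 1 of the 6 hashtags was left out (edgeR adjusted p from 0.0598 to 0.509). In cluster 0 the estimate had the other sign, 1.29 (edgeR adjusted p = 0.573), with overlapping groups.

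**Figure D4:**
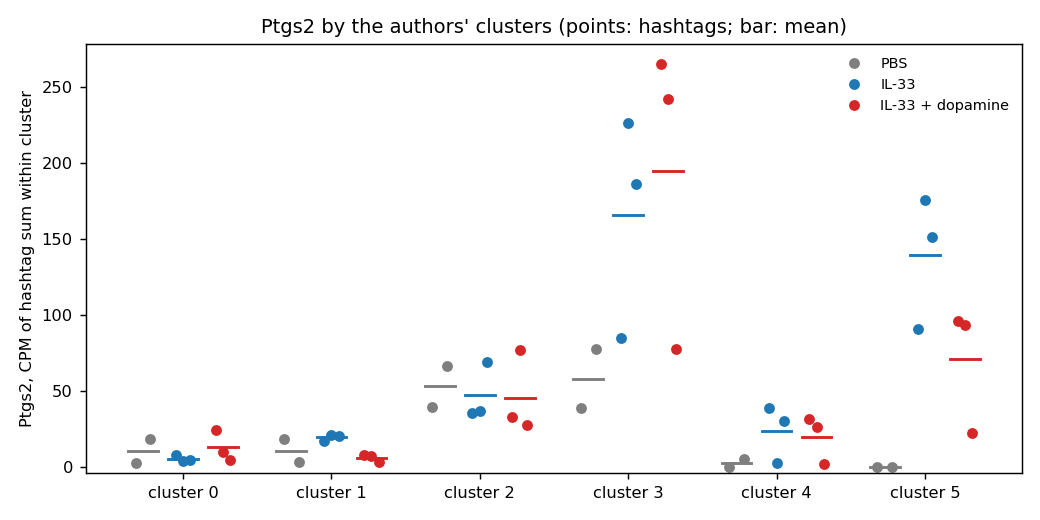
Ptgs2 in CPM of the hashtag's summed UMIs within each of the 6 clusters (vertical axis), by treatment; points are hashtags and bars group means. Clusters 3 and 5 hold the highest levels, with points from 38.5 to 265 CPM in cluster 3, and both PBS points are at 0 in cluster 5.

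Hpgds, the prostaglandin D2 synthase of haematopoietic cells, lies on chromosome 6 from 65117293 to 65144908, minus strand. Its TPM was 3.91, 7.66 and 1.32 with PBS and 17.6, 0.36 and 0.24 with dopamine. Dopamine library 1 was the highest of all 6 and the other 2 dopamine libraries the lowest, and the sign of the estimate differs between scales: the mean TPM was higher with dopamine (6.06 against 4.30) and the log2 fold change was -0.55 (95% interval -2.77 to 1.66, limma adjusted p = 0.745), or -1.05 relative to the median gene. Droplet levels were 5.72 and 6.25 CPM with PBS, 7.77, 7.55 and 9.88 CPM with IL-33, and 9.16, 8.29 and 9.41 CPM with dopamine. IL-33 hashtags lay above PBS hashtags (0.44, edgeR adjusted p = 0.536), and the dopamine difference was 0.08 with a 95% interval of -0.28 to 0.45. Its 409 UMIs were spread over 356 cells with at most 4 in a cell.

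Alox5, the enzyme of the first step towards leukotrienes, lies on chromosome 6 from 116410077 to 116461178, minus strand. Its TPM was 30.7, 18.2 and 19.0 with PBS and 30.3, 33.4 and 25.5 with dopamine, with overlap. The log2 fold change of 0.41 was -0.08 relative to the median gene, and became -0.11 after median-of-ratios scaling and -0.07 after quantile normalization. In droplets Alox5 was highest without IL-33: 35.1 and 29.5 CPM with PBS, 17.4, 26.8 and 25.3 CPM with IL-33, and 19.1, 18.9 and 20.4 CPM with dopamine. The IL-33 difference was -0.49 ± 0.20 (SE; 95% interval -0.92 to -0.06, edgeR adjusted p = 0.299), and the dopamine difference -0.23 with a 95% interval of -0.58 to 0.11. In pooled level Alox5 varied least of the 8 by cluster, from 19.7 CPM in cluster 4 to 27.3 CPM in cluster 3, a narrower range than that of Scgb1a1.

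Alox5ap, which encodes FLAP, lies on chromosome 5 from 149264767 to 149288153, plus strand. Its TPM was 86.2, 80.8 and 156 with PBS and 159, 79.3 and 82.6 with dopamine: 1 library of each group was high and the other 2 were close. The log2 fold change was -0.02 ± 0.36 (SE), -0.51 relative to the median gene and -0.56 with median-of-ratios scaling (limma adjusted p = 0.434). In droplets it was at 6.44 and 11.6 CPM with PBS, 14.8, 14.1 and 14.4 CPM with IL-33, and 9.31, 10.5 and 5.40 CPM with dopamine. The IL-33 hashtags were the 3 highest of the 8. The dopamine difference was -0.78 ± 0.19 (SE; 95% interval -1.19 to -0.37, edgeR adjusted p = 0.252), and the IL-33 difference 0.50 ± 0.22 (SE; edgeR adjusted p = 0.348). Its share of cells was 5.72%, 5.40% and 6.53% with IL-33 and 3.91%, 4.51% and 2.17% with dopamine, an exact two-sided permutation p of 0.1. Its pooled level, like that of Ltb4r1, was highest in clusters 5 and 1 (21.0 and 15.9 CPM) and at 9.58 CPM or less in the other 4. Cluster 5 lay above cluster 1 in only 5 of 8 hashtags, and above cluster 3, the lowest, in 6 of 8. In cluster 5 Alox5ap was at 0 CPM in PBS hashtag 2 and dopamine hashtag 8, where that cluster held 3.07% and 1.76% of cells. Dopamine hashtags were lower without overlap within clusters 0, 3 and 4, where it had too few UMIs to be tested. The groups overlapped in the 3 clusters tested, at -0.62 in cluster 1, -0.99 in cluster 2 and 0.13 in cluster 5, its highest cluster (edgeR adjusted p = 0.965).

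Counted together, Ltb4r1 was the 1 of 8 members that passed the droplet dopamine test, and Ltb4r1 and Alox5ap were lower there without overlap between groups, beside 14.7% of all genes tested in either direction. For IL-33 against PBS, 2 of 8 passed (Ltb4r1 and Ptgs2, both higher), and 6 of 8 had no overlap, 4 higher and 2 lower (Cysltr1 and Alox5), beside 34.6% of all genes tested. The median log2 fold change of the 8 was -0.03 for dopamine and 0.20 for IL-33, against 0.00 for all genes in both.

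**Figure D5:**
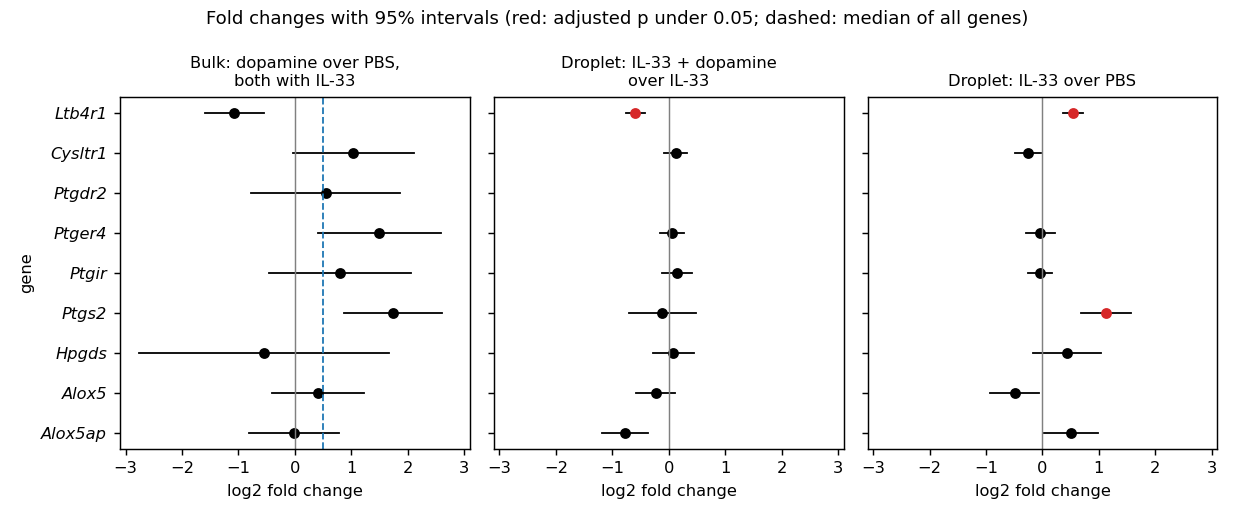
Log2 fold changes (horizontal axes) with 95% intervals for the members in the 3 comparisons; red points passed at an adjusted p under 0.05 and the dashed line is the median of all genes in the bulk libraries, 0.49. Ltb4r1 lies at -1.07, -0.59 and 0.54, and the droplet intervals of Ptger4 and Ptgir for dopamine are narrow around 0.06 and 0.15.

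Basophils and mast cells, which also carry several of these genes, were checked by 8 markers. In the bulk libraries 7 were detected and Tpsb2 was listed at 0 throughout, and the sum ran from 64.3 to 292 TPM with PBS and from 124 to 212 TPM with dopamine. Mcpt8, a basophil protease, ranged from 17.6 to 77.8 TPM in the PBS libraries and from 28.8 to 54.6 TPM in the dopamine libraries. Macrophage markers were uneven, 7 of 8 detected, with sums of 146, 11.5 and 31.5 TPM with PBS and 2.29, 407 and 1.29 TPM with dopamine. Their part in the bulk values of Alox5, Alox5ap and Hpgds was not tested. In droplets Mcpt8 had 4 UMIs in all, and the basophil and mast cell markers summed to between 6.44 and 19.95 CPM per hashtag, in ranges that overlapped between treatments.

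Of the other 35 genes of the pathway, 20 were tested in the bulk libraries and none passed by limma. Of these, 3 were higher and 2 lower without overlap, beside 23.5% and 6.57% of all genes. In droplets 15 were tested and none passed by edgeR in either comparison; 2 were lower with dopamine without overlap (14.7% of all genes in either direction), and 5 were higher and 2 lower with IL-33 (34.6%). By list, members included, the 3 leukotriene receptors tested had a bulk median log2 fold change of -0.71 and the 7 prostanoid receptors tested one of 0.80, against 0.49 for all genes. Cysltr2, the second cysteinyl leukotriene receptor, was at 69.6, 31.9 and 32.5 TPM with PBS and at 25.9, 24.2 and 24.9 TPM with dopamine, lower without overlap (log2 fold change -0.71, limma adjusted p = 0.266). Its droplet levels were 43.6 and 33.6 CPM with PBS, 53.7, 49.1 and 44.1 CPM with IL-33, and 34.7, 48.6 and 31.0 CPM with dopamine (dopamine -0.36, edgeR adjusted p = 0.495). The IL-33 hashtags were all above the PBS hashtags, and hashtag 7 kept the dopamine group from lying below them.

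Among synthesis genes, Lta4h, which makes leukotriene B4, had a bulk log2 fold change of 0.26 (limma adjusted p = 0.591) and stayed between 40.6 and 48.1 CPM in the 6 hashtags with IL-33. Mgst2, a microsomal glutathione transferase able to make leukotriene C4, was at 13.2, 21.7 and 17.6 TPM with PBS and 77.4, 31.1 and 24.6 TPM with dopamine (1.14, 0.65 relative to the median gene, limma adjusted p = 0.177), and lower with dopamine in droplets. Such opposite movement in the 2 assays, without overlap in either, was seen for 1.14% of the 9533 genes tested in both. Alox15, a 12/15-lipoxygenase, went from a mean of 4.30 to 17.5 TPM (1.81, limma adjusted p = 0.149) with overlapping groups. It was not among the droplet genes. Ggt1, which trims leukotriene C4 to D4, had a bulk log2 fold change of 0.84 (limma adjusted p = 0.278). In droplets it had at most 9 UMIs in a hashtag and was not tested. Ptges3, a prostaglandin E synthase also known as the co-chaperone p23, ranged from 32.7 to 50.5 TPM in PBS libraries and from 61.0 to 67.5 TPM in dopamine libraries (0.58, limma adjusted p = 0.246), and its droplet dopamine difference was -0.01.

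Ptger2, the EP2 receptor for prostaglandin E2, had a bulk log2 fold change of 0.62 (limma adjusted p = 0.445) and a droplet dopamine difference of 0.16 (edgeR adjusted p = 0.785). In clearance and export, Cyp4f18, which inactivates leukotriene B4, averaged 69.6 ± 43.0 TPM in the PBS libraries and 102 ± 31.9 TPM in the dopamine libraries (SD, n = 3), which overlapped. Cyp4f18 was not among the droplet genes. Abcc1, an exporter of leukotriene C4, had a bulk log2 fold change of 1.03 (limma adjusted p = 0.311) and a droplet dopamine difference of 0.21. Cbr1, a carbonyl reductase acting on prostaglandin E2, had a bulk log2 fold change of 0.15 (-0.34 relative to the median gene) and a droplet dopamine difference of -0.05 against IL-33 alone. Ptgr2, a prostaglandin reductase, gave 0.53 and 0.24 in the same comparisons.

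Genes whose level ran most like a member's were sought over the same 47 sums, among 6835 genes, by Pearson r of log2(CPM + 1); the points share hashtags, clusters and depth. For Ltb4r1 they were B2m (0.84), Vim (0.82) and Cyb5a (0.80). For Ptgs2 they were Cenpl (0.78), Ccr4 (0.78) and Hccs (0.75), for Alox5ap Lrmp (0.76), Rab35 (0.75) and Rpl28 (0.72), and for Cysltr1 Mdfic (0.73), Ly6a (0.73) and Lpcat2 (0.68). Ptger4 was nearest to Stim2 (0.77), Casp4 (0.75) and Mcm3 (0.74), Ptgir to Gpr65 (0.68), Irak2 (0.68) and Birc3 (0.65), and Alox5 to Dcaf10 (0.60), Dus2 (0.60) and Zzef1 (0.58). No gene of the pathway was among the nearest 3 of any member. Between members the highest r was 0.38, for Ltb4r1 and Alox5ap, followed by 0.35 for Ptgir and Ptgs2.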

How the data were processed

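Bulk values were TPM, transcript shares corrected for length, which the authors deposited for 55413 genes; droplet values were UMI counts that the authors deposited for 15083 genes in 9076 cells, with their hashtag, treatment and cluster of each cell. The percent of mitochondrial UMIs, deposited by the authors, reached 7.50% at most. The submitters' processing notes name cutadapt 2.10, STAR 2.7.5c, RSEM 1.3.3, Cell Ranger 6.1.1, Seurat 4.0.2 and mm10. The sources used here do not say how doublets were treated, and no doublet caller was run. Read depth of the bulk libraries is unknown.

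The members and gene lists were chosen with earlier results of these data known. Bulk genes at 1 TPM or more in at least 3 of 6 libraries were tested with limma 3.58.1 (trend) on log2(TPM + 1), so fold changes of low genes are understated. UMI counts were summed per hashtag and tested with edgeR 4.0.16 (TMM, filterByExpr, quasi-likelihood), with DESeq2 1.42.0 as an alternative, in R 4.3.3. P-values measure the spread between libraries or hashtags, and the labels do not say that a hashtag was 1 mouse. All members were named, and of the other pathway genes those with a mean of at least 10 TPM or 20 CPM; like-pattern genes were the nearest 3 by Pearson r for members with a mean of at least 10 CPM. A count of 0 was read as allowing 3 counts, for counting error only. Same-numbered bulk libraries were not paired: their deviations had r of 0.02, -0.07 and -0.002. On simulated data the bulk fit recovered 50% of genes changed by 2 and 96% of genes changed by 4 on the log2 scale. Of its 156 calls, 10 were false. Noise there was independent between genes and the median gene was not shifted, so these figures do not give the recovery in the real libraries. Alternatives are listed in the closing section, and leaving out hashtags within clusters was added after seeing the data.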

Additional observations from a re-analysis of the deposited data

Results flagged for a closer look

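Of the 22 pathway genes tested in both assays, 2 moved in opposite directions with dopamine in the bulk and the droplet libraries, with groups that did not overlap in either, as did 109 of all 9533 genes (1.14%). Neither passed a test. Mgst2 was higher in the 3 bulk dopamine libraries (log2 fold change 1.14, limma adjusted p = 0.177) and lower in the 3 droplet dopamine hashtags (-0.57, edgeR adjusted p = 0.331). Ptger1, the EP1 receptor, named here after its values were seen, was higher in bulk (2.04, limma adjusted p = 0.0986) and lower in droplets (-0.65, edgeR adjusted p = 0.552), at 2.40 CPM or less in every hashtag. The difference between the 2 assays was not tested, and sex and library method change with the assay.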

How the results depend on the processing

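In the bulk libraries the 4 genes passing became 2 with a pseudocount of 5 or a mean TPM of at least 5, 0 without a filter by limma (2706 genes had an unadjusted p under 0.05 in the fit reported), 21 after quantile normalization, 15 with the replicate number as a block and 2800 with library weights; leaving out 1 library gave 0 to 1536, with 1536 without PBS library 1, 90 without PBS library 3, 1 without dopamine library 2 and 0 without PBS library 2. Members passing stayed at 0 with the replicate block and became 3 (Ltb4r1, Ptger4 and Ptgs2) with library weights; leaving out 1 library gave 0 to 3. Over the bulk alternatives Ltb4r1 ran from -1.62 to -0.78 (limma adjusted p 0.0210 to 0.242) and Ptgs2 from 1.22 to 2.06 (0.00749 to 0.242), Ptger4 from 0.97 to 2.07 (0.00828 to 0.330), Ptgir from 0.28 to 1.44 (0.0573 to 0.819) and Cysltr1 from 0.47 to 1.38 (0.0780 to 0.520). Signs turned for Alox5 (-0.11 with median-of-ratios scaling, -0.074 with quantile normalization) and, with library weights, for Ptgdr2 (-0.23) and Hpgds (0.042). Leaving out 1 library, Hpgds ran from -1.83 to 0.12 and Alox5ap from -0.34 to 0.28.

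For dopamine in droplets, the 3 genes passing became 29 with DESeq2 and 9 among cells between the 10th and 90th percentile of UMIs, where Ptgs2 had 0.16; leaving out 1 hashtag gave 1 to 16 genes and 0 to 1 member. Leaving out 1 hashtag, Ptgs2 ran from -0.44 to 0.20, Ptger4 from -0.016 to 0.18 and Ptgir from -0.0088 to 0.26. Ltb4r1 ran from -0.64 to -0.43 and passed in 7 of the 11 alternatives with a test. Within clusters the 1 call of a member became 0 to 1 without 1 hashtag, and where it stayed at 1 it was Ptgs2 in cluster 5 (edgeR adjusted p = 0.0331 without hashtag 3) or Ltb4r1 in cluster 5 (0.0172 without hashtag 8).

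For IL-33, the 74 genes became 122 with DESeq2, 322 without a filter, 34 among cells between those percentiles and 0 with all 8 hashtags in 1 edgeR fit, and members passing became 0 in the last 2 of these; leaving out 1 hashtag gave 5 to 124 genes and 0 to 2 members. Signs turned for Ptger4 (0.067) and Ptgir (0.0066) with equal weight for each cluster, and leaving out 1 hashtag Ptger4 ran from -0.13 to 0.035 and Ptgir from -0.10 to 0.0039. The dopamine difference in the share of cells with a UMI, in percentage points, changed sign after thinning for Ptger4 (1.90), Ptgir (1.50) and Hpgds (0.16), and without 1 hashtag it ran from -1.48 to 1.37 for Cysltr1, -1.98 to 1.12 for Ptger4, -1.44 to 0.40 for Ptgs2 and -0.72 to 0.043 for Hpgds. The cause of these changes was not tested. For each of the 8 members, the level in its highest cluster moved by less than 1 SD over hashtags when hashtags had equal weight. The other cluster levels were not compared in that way, and the lowest cluster of Ptgir became cluster 0 instead of cluster 1.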
